A study of Arabidopsis thaliana with 6 samples.

Results

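The primary transcripts of MIR160a (AT2G39175) and MIR160c (AT5G46845), called miR160a and miR160c below, were followed base by base in Arabidopsis thaliana leaves after chemical probing with dimethyl sulfate (DMS). Every position that the base-call tables list under either name was taken, in all 6 libraries. This gave 503 positions of the 5550 in the series, 273 in miR160a and 230 in miR160c, from 2 of the 19 amplicons. Of these 503 positions, 238 were A or C (124 in miR160a and 114 in miR160c), out of 2656 A or C positions in the series.

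All leaves came from plants 3 weeks old, and nuclear RNA was extracted from them after treatment. The groups were chr2 plants treated with 1% DMS for 30 min (2 libraries), Col wild-type plants treated in the same way (2 libraries), chr2 plants mock-treated with water (1 library) and Col plants mock-treated with water (1 library). The labels name no allele for chr2, and no amplicon covers CHR2, so the mutation itself could not be checked in these files. CHR2, also known as BRAHMA, is an ATPase of SWI/SNF chromatin remodelling complexes, and the title of the series links it to the remodelling of pri-miRNAs through SERRATE, a partner of Dicer. Nothing states that replicates came from separate plants, so the spread between them, and every p-value based on it, may be technical.

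As background, miR160 is a conserved plant microRNA that guides the cleavage of mRNAs for a group of auxin response factors, which repress auxin-responsive genes. Its primary transcripts fold into a hairpin whose stem holds the miRNA and the opposite star strand. The nuclear Dicer enzyme DCL1, with HYL1 and SERRATE, releases the duplex from such hairpins, and in many plant precursors the unpaired bases below the duplex help to set the first cut. DMS methylates A and C on the face used for base pairing, mainly where the base is unpaired. The reverse transcriptase used here (TGIRT-III) reads through the methyl group and leaves a mismatch, so the mismatch rate of an A or C, the percentage of base calls that differ from the transcribed base, is the readout. Mismatches at G and T serve as a control, as do the mock libraries.

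The precursors shared 1 run of 23 nt, which occurred in no other amplicon and is taken here as the miRNA strand. The run was not checked against the mature miRNA and may be longer, so strand ends and distances to them are approximate. It lay at positions 138 to 160 of miR160a and 92 to 114 of miR160c, counted from the 5′ end of each amplicon. The star strand was taken as the bases that the minimum free energy fold pairs with it, positions 198 to 220 of miR160a and 154 to 176 of miR160c. The hairpins are shown because all regional comparisons rest on them, with both strands of the duplex in capitals and 15 nt of the stem base on each side.

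miR160a, positions 123 to 235: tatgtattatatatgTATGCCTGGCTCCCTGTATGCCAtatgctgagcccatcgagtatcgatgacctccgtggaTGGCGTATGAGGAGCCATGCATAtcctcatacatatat

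miR160c, positions 77 to 191: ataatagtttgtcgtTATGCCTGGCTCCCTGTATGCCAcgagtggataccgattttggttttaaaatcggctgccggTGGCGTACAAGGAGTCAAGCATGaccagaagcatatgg

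Both folds held 21 pairs across the duplex and left 2 bases of the miRNA strand unpaired. The star strands were identical at 18 of 23 bases. Between the strands lay a terminal region of 37 nt in miR160a and 39 nt in miR160c, of which 13 nt and 11 nt were predicted to be unpaired. The sequences upstream of the hairpin were alike in composition, with 73.6% A or T in miR160a and 73.0% in miR160c, whereas downstream the shares were 76.9% in miR160a and 61.5% in miR160c. By the fold at 37 °C, the stem continued below the duplex for only 1 nt on each side in miR160a and 2 nt in miR160c. Folded at 22 °C, the miR160c stem reached 16 nt on the 5′ side and 17 nt on the 3′ side, while miR160a kept 1 nt. The miR160a bases held no A or C. The lower stem is therefore described over the 15 nt on each side of the duplex, whether or not they were predicted to pair.

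The first and last 26 nt of each amplicon, where primers bind, were kept out of mean rates and replicate counts. Tests of single positions included them. The rest held 103 A or C positions in miR160a and 83 in miR160c. Median coverage over miR160a was 110022 and 55638 base calls per position in chr2 with DMS, 86056 and 70739 in Col with DMS, and 54329 and 86649 in the chr2 and Col mocks. Over miR160c the same medians were 170537 and 163500, then 150876 and 172565, then 212376 and 147608, so miR160c was the more deeply read in every library. No position of either precursor had fewer than 21844 calls. PCR reads without molecular identifiers are not independent molecules, and intervals from these counts cover counting error only.

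miR160a was broadly reactive to DMS, and miR160c had the lowest mean rate of the 19 amplicons. The mean mismatch rate of A and C in miR160a was 2.38% and 1.85% in chr2 with DMS and 1.91% and 2.34% in Col with DMS, against 0.0543% in the chr2 mock and 0.0499% in the Col mock. In miR160c it was 0.641% and 0.385% in chr2 with DMS and 0.781% and 0.233% in Col with DMS, against 0.0431% in the chr2 mock and 0.0418% in the Col mock. The highest miR160c library lay below the lowest miR160a library. Ranked by the mean of the 4 DMS libraries, miR160a was 7th and miR160c 19th of 19. By single library miR160c ranked 18th in chr2 replicate 1 and last in the other 3, while miR160a ranked between 5th and 11th. Over all 6 libraries the amplicons closest to miR160a in mean rate were miR156b and miR167b, with summed absolute log2 differences of 0.69 and 0.98. The closest to miR160c, miR164b and miR319b, stood much further off, at 6.37 and 7.41.

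Within each DMS library, miR160a exceeded miR160c by a mean log2 ratio of 2.06 ± 0.77 (SD, n = 4 libraries), or 4.18-fold, with 0.05% added to each rate, and the ratio was above 0 in 4 of 4. Flipping the signs of these ratios (an exact two-sided permutation test) gave p = 0.125, the smallest this design allows, so no region can pass a threshold of 0.05 here. Adjusted over the 10 overlapping regions compared, this p became 0.156. With medians over positions in place of means the log2 ratio was 0.63. By DMS library, 51.5% to 63.1% of the positions of miR160a and 69.9% to 90.4% of those of miR160c were under 0.2%.

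**Figure D1:**
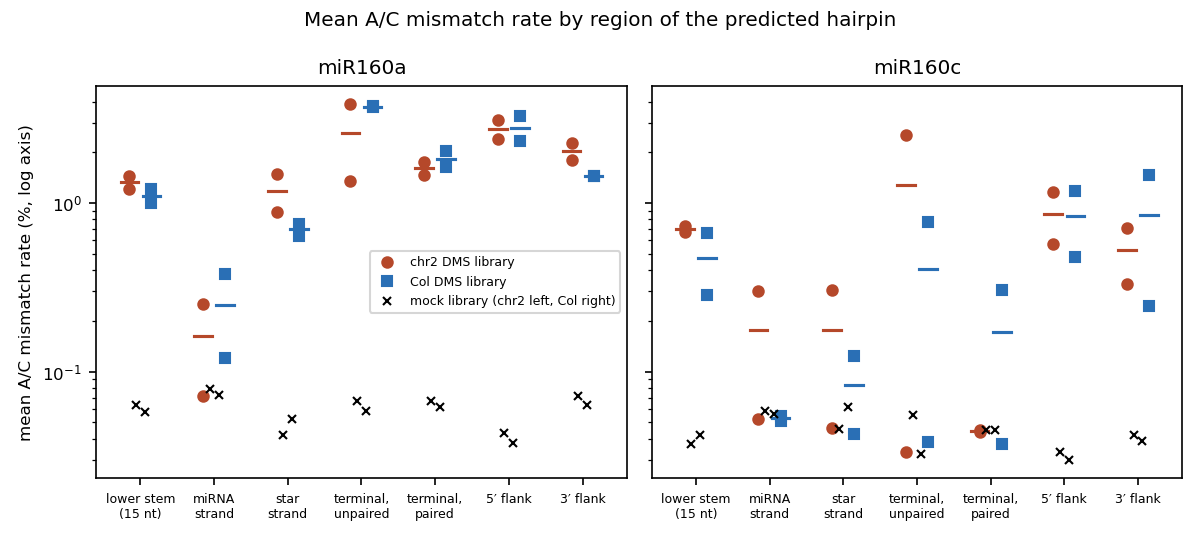
Mean A/C mismatch rate (%, log axis) of each region of miR160a (left panel) and miR160c (right panel), with 1 point per library and horizontal bars for the mean of 2 DMS libraries. chr2 is left of Col in each region and crosses are the mock libraries. In miR160a all regions except the miRNA strand lie far above the mocks, whereas in miR160c the points of 1 region spread from mock level to above 1%.

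Region by region, the miRNA strand was the least reactive stretch of miR160a and, by the mean ratio, differed least between the precursors. Its 11 A or C positions, identical in both, averaged 0.252% and 0.0714% in chr2 and 0.379% and 0.120% in Col for miR160a, against mocks of 0.0784% in chr2 and 0.0726% in Col. For miR160c the averages were 0.301% and 0.0525% in chr2 and 0.0545% and 0.0511% in Col, against mocks of 0.0582% and 0.0558%. The ratio of miR160a to miR160c was 1.63-fold (log2 0.70 ± 0.97, SD, n = 4 libraries), higher in 3 of 4 (exact sign-flip permutation p = 0.25, adjusted p = 0.25). Each mean above mock came from 1 base in 1 library. In miR160a these were C151, at 2.12% in chr2 replicate 1, C142, at 3.66% in Col replicate 1, and C143, at 0.648% in Col replicate 2. In miR160c it was C97, at 2.77% in chr2 replicate 1. C143 and C97 are the same base of the shared run, which both folds leave unpaired. C151 is the other base of the run left unpaired in miR160a, and its counterpart in miR160c, C105, stayed between 0.056% and 0.101% in the 4 DMS libraries.

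The star strand differed more. In miR160a its 10 A or C positions averaged 1.48% and 0.880% in chr2 and 0.640% and 0.755% in Col, while the 11 of miR160c averaged 0.0463% and 0.305% in chr2 and 0.123% and 0.0425% in Col. The ratio was 6.17-fold (log2 2.62 ± 1.16, SD, n = 4 libraries) and above 0 in 4 of 4 (exact sign-flip permutation p = 0.125, adjusted p = 0.156). Most of the miR160a value in Col came from A207, an unpaired base inside the star strand, which read 5.18% and 2.15% in chr2 and 4.36% and 4.83% in Col, against 0.0495% in the chr2 mock and 0.176% in the Col mock. This base was past 1% in all 4 DMS libraries. The corresponding unpaired base of miR160c, A163, stayed between 0.067% and 0.081% in the DMS libraries, against mocks of 0.0691% in chr2 and 0.0694% in Col. Of the A or C in the miR160c star strand, A170 alone passed 1%, at 2.90% in chr2 replicate 2, and it read at most 0.052% in every other library.

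By the mean ratio over the 4 libraries, the contrast was wider in the terminal region than in either duplex strand, the lower stem or the flanks. It was not in chr2 replicate 1, where the log2 ratio was 1.69, against 3.99 in the star strand. The ratio was largest in replicate 2 of chr2 and of Col, at log2 4.18 and 4.84, where the 0.05% added to each rate weighs on it. The 18 A or C positions of miR160a averaged 2.40% and 1.59% in chr2 and 2.68% and 2.46% in Col, against mocks of 0.0672% in chr2 and 0.0606% in Col. The 15 of miR160c averaged 0.708% and 0.0409% in chr2 and 0.432% and 0.0376% in Col, against mocks of 0.0476% and 0.0416%, so that replicate 2 of either genotype was no higher than its mock. The ratio was 9.87-fold (log2 3.30 ± 1.46, SD, n = 4 libraries), above 0 in 4 of 4 (exact sign-flip permutation p = 0.125, adjusted p = 0.156). Bases predicted to be unpaired gave 8.39-fold and bases predicted to be paired 13.6-fold.

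The terminal region of miR160a had 3 bases past 1% in all 4 libraries. A177, next to the hairpin's end loop and paired in the prediction with the closing base T181, read 11.3% and 17.3% in chr2 and 18.5% and 8.76% in Col. A180, an unpaired base of that loop, read 11.4% and 1.39% in chr2 and 2.06% and 3.09% in Col. C188, in an internal loop, read 2.49% and 1.24% in chr2 and 10.6% and 9.20% in Col. Mocks at these bases were between 0.026% and 0.042%. In miR160c the most reactive loop base was A124, with 8.12% and 0.0378% in chr2 and 1.98% and 0.0409% in Col, against mocks of 0.0306% in chr2 and 0.0328% in Col. Only replicate 1 of each genotype was above mock level there, and the same 2 libraries were the only ones past 1% at A117, with 1.93% in chr2 and 1.02% in Col. The run of paired A at positions 139 to 142 of the miR160c loop stayed between 0.014% and 0.062% in all 4 DMS libraries.

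By the mean ratio, the lower stem gave the smallest contrast after the miRNA strand. Its 14 A or C positions in miR160a averaged 1.46% and 1.21% in chr2 and 1.00% and 1.21% in Col, and the 14 in miR160c averaged 0.734% and 0.671% in chr2 and 0.665% and 0.283% in Col. Mocks were 0.0637% in chr2 and 0.0580% in Col for miR160a, and 0.0372% and 0.0422% for miR160c. The ratio was 2.08-fold (log2 1.06 ± 0.60, SD, n = 4 libraries), above 0 in 4 of 4 (exact sign-flip permutation p = 0.125, adjusted p = 0.156), but medians over positions turned its direction, to a log2 ratio of -0.18. In miR160c the mean leaned on C89, the unpaired base 3 nt before the miRNA strand, which read 6.14% and 2.80% in chr2 and 2.87% and 0.0705% in Col, against mocks of 0.0879% in chr2 and 0.0652% in Col. No other A or C of miR160c was past 1% in 2 chr2 libraries and 1 Col library except A199, downstream of the hairpin. In miR160a the reactive bases of the lower stem were mostly on its 3′ side, led by C223, with 7.64% and 10.7% in chr2 and 2.39% and 0.111% in Col, and C222, with 4.11% and 0.133% in chr2 and 3.38% and 5.24% in Col.

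The flanks carried most of the reactive bases of both precursors, but they also held most of the A or C positions. The 5′ and 3′ flanks had 52 and 12 of 103 in miR160a, and 29 and 15 of 83 in miR160c. These include the lower stem bases described above. Counting the 15 nt of stem base with them, the 52 A or C of the 5′ flank of miR160a averaged 3.13% and 2.39% in chr2 and 2.32% and 3.29% in Col, and the 29 of miR160c averaged 1.16% and 0.570% in chr2 and 1.18% and 0.481% in Col. That ratio was 3.34-fold (log2 1.74 ± 0.74, SD, n = 4 libraries), above 0 in 4 of 4 (exact sign-flip permutation p = 0.125, adjusted p = 0.156). In the 3′ flank the 12 A or C of miR160a averaged 1.81% and 2.28% in chr2 and 1.44% and 1.45% in Col, and the 15 of miR160c averaged 0.332% and 0.715% in chr2 and 1.46% and 0.245% in Col. Col replicate 1 held nearly equal values for the precursors there, and the ratio of 2.94-fold was above 0 in 3 of 4 libraries (exact sign-flip permutation p = 0.25, adjusted p = 0.25).

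**Figure D2:**
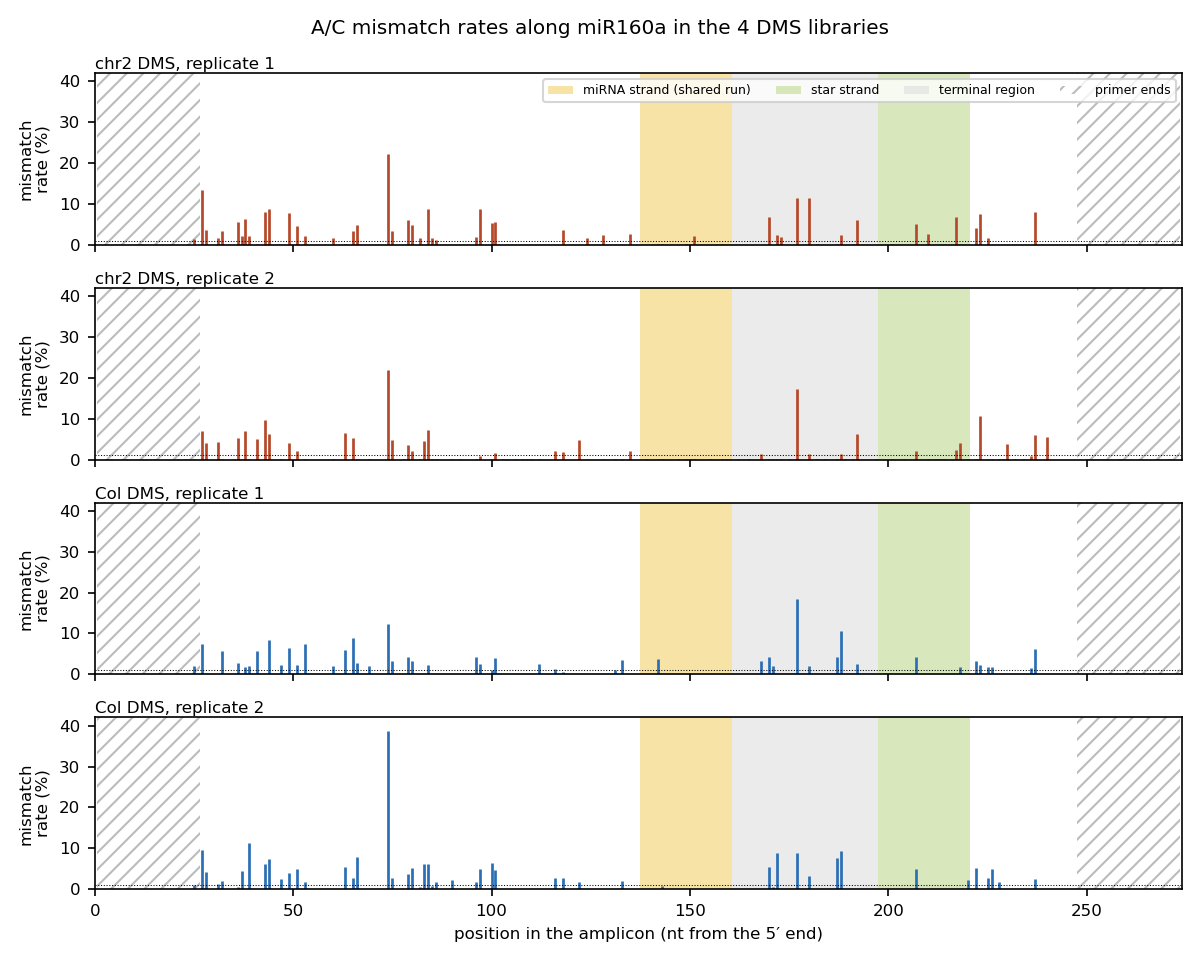
Mismatch rate (%) of each A or C along miR160a, by position from the 5′ end of the amplicon, in the 2 chr2 and the 2 Col DMS libraries from top to bottom. Shading marks the miRNA strand, terminal region and star strand, hatching the primer ends, and the dotted line 1%. The 5′ flank and terminal region hold most of the bars in each library, and position 74 is the highest in chr2 replicates 1 and 2 and in Col replicate 2, at 22.3%, 21.8% and 38.7%.

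Both precursors were more reactive where the fold at 37 °C leaves bases unpaired. Pairing was not taken again from the fold at 22 °C, in which the miR160c stem reached further. In miR160a the 35 unpaired A or C averaged 3.20% and 2.03% in chr2 and 2.92% and 3.56% in Col, against 1.96% and 1.75% in chr2 and 1.39% and 1.72% in Col for the 68 paired ones. In miR160c the 35 unpaired averaged 1.26% and 0.515% in chr2 and 1.65% and 0.287% in Col, against 0.186% and 0.289% in chr2 and 0.151% and 0.193% in Col for the 48 paired ones. Unpaired bases were higher in each of the 4 libraries of both precursors. All the same, paired A or C of miR160a stood well above the mock mean of 0.0552% in chr2 and 0.0502% in Col, and 5 of its 16 positions past 1% in all 4 DMS libraries were predicted to be paired. Of the 12 positions of miR160c past 1% in 2 or more libraries, 11 were unpaired and 1 paired.

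**Figure D3:**
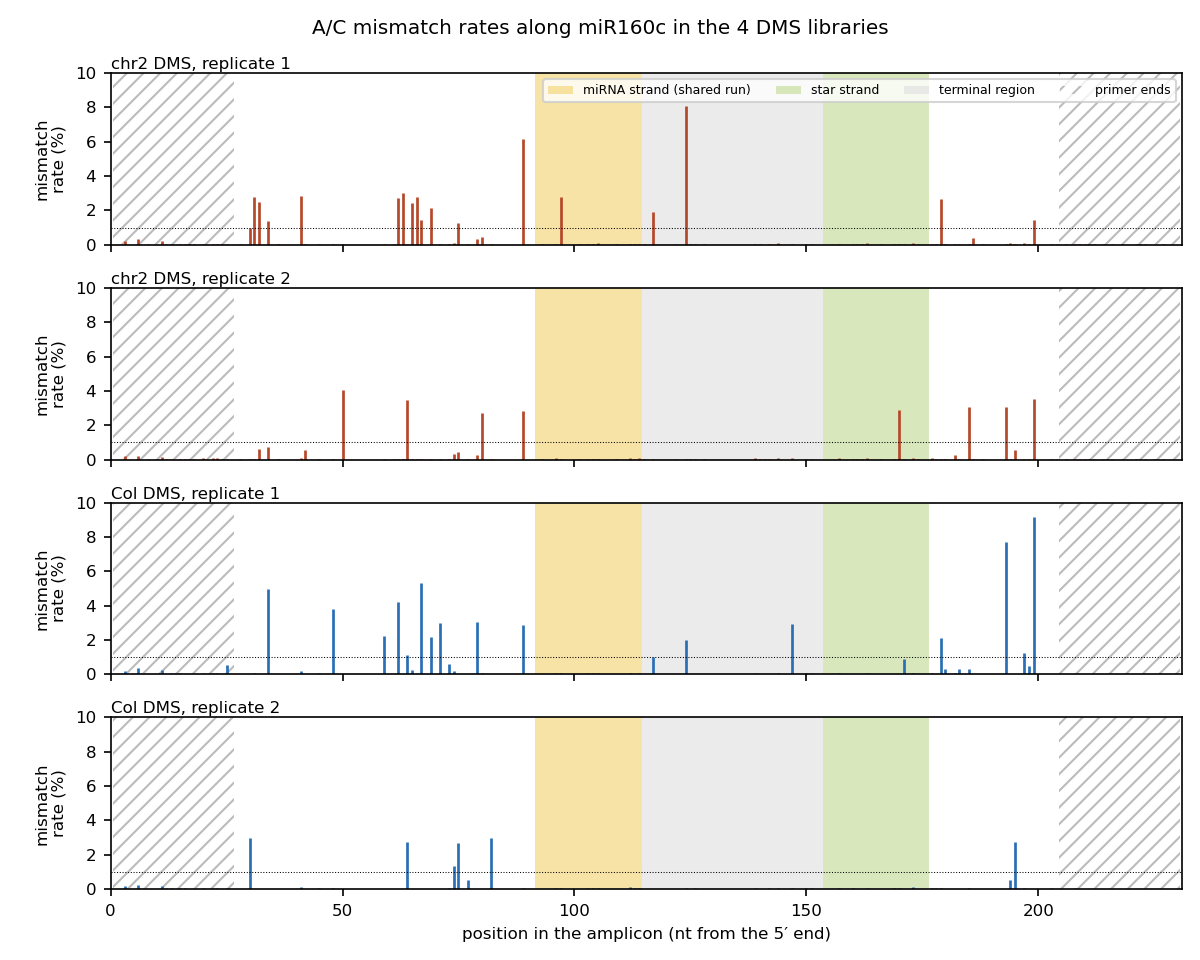
Mismatch rate (%) of each A or C along miR160c, drawn as for miR160a, in the 2 chr2 and the 2 Col DMS libraries from top to bottom. Replicate 2 of chr2 and of Col hold 8 and 6 positions past 1%, against 17 in replicate 1 of each, and none is past 1% in all 4 libraries.

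Against the mocks, 4 A or C positions of miR160a rose in chr2 with DMS and 8 rose in Col, of 123 tested (edgeR quasi-likelihood test, Benjamini-Hochberg adjusted p under 0.05 over all A or C positions of the series). Over the whole series 13.0% of 2597 positions rose in chr2 and 13.2% in Col, so the shares in miR160a, 3.25% and 6.50%, were below those of the series. In miR160c 0 of 113 rose in either genotype by edgeR. These tests included the primer ends. Without them, 6 of 103 positions of miR160a rose in chr2 (5.83%) and 10 in Col (9.71%). The series then had 16.8% in chr2 and 16.9% in Col, and miR160c had 0 of 83 in either. At an unadjusted p under 0.05, 22 positions of miR160a were higher with DMS in chr2 and 23 in Col, against 2 and 0 in miR160c. Over the series these shares were 24.2% in chr2 and 23.7% in Col. DESeq2, which estimates the spread differently, called 42 and 50 positions of miR160a and 18 and 18 of miR160c, against 37.8% and 37.7% of the series. Leaving out any 1 of the 4 DMS libraries, or scaling the libraries by their A or C rates, left 0 edgeR calls in miR160a and also 0 over the whole series. The size of the difference held: at position 44 of miR160a the log2 ratio to mock without each DMS library in turn was 7.97 to 8.48 in chr2 and 8.64 to 8.85 in Col, and with the scaling 7.34 in chr2 and 7.72 in Col.

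A44, C75 and C79, all in the 5′ flank of miR160a, rose in both genotypes. A44, predicted to be unpaired, read 8.84% and 6.20% in chr2 and 8.41% and 7.30% in Col, against 0.0246% in the chr2 mock and 0.0181% in the Col mock (adjusted p = 0.0372 in chr2 and 0.0366 in Col, edgeR). The 4 libraries lie close together there, which few positions of the precursor do. C79, also unpaired, read 6.07% and 3.57% in chr2 and 4.35% and 3.66% in Col, against mocks of 0.0282% and 0.0255% (adjusted p = 0.0372 and 0.0374). C75, predicted to be paired, read 3.34% and 4.79% in chr2 and 3.16% and 2.61% in Col, against mocks of 0.121% and 0.0929% (adjusted p = 0.0453 and 0.0463). Its neighbour C74 was the most reactive base of either precursor, with 22.3% and 21.8% in chr2 and 12.3% and 38.7% in Col, against 0.313% in the chr2 mock and 0.257% in the Col mock. It missed the threshold in both (adjusted p = 0.151 and 0.141), and the Col replicates lay far apart.

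In Col alone A47, A80, A133, A187 and C188 passed, and in chr2 alone A135 did, but a pass in one genotype and not the other is no test of their difference. A80 read 4.86% and 2.07% in chr2 and 3.26% and 5.20% in Col, and fell just short in chr2 (adjusted p = 0.0524, against 0.0493 in Col). C188 likewise had an adjusted p of 0.0618 in chr2 and 0.0392 in Col. The other 4 looked different between genotypes. A47 read 0.0238% and 0.0297% in chr2, at mock level, and 2.16% and 2.48% in Col. A133, in the lower stem 5 nt before the miRNA strand, read 0.0204% and 0.0222% in chr2 and 3.52% and 2.04% in Col. A135, 2 nt further on, did the opposite, with 2.62% and 2.02% in chr2 and 0.0273% and 0.0210% in Col. A187, beside C188 in the terminal region, read 0.281% and 0.249% in chr2 and 4.28% and 7.73% in Col. At these 4 bases the replicates of a genotype stood together and the genotypes did not overlap. The bases were picked for passing against mock in Col or chr2 alone, which favours such a pattern. The lack of overlap therefore cannot show a difference between genotypes, and its frequency over the series was not counted.

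Tested directly, no A or C position of miR160a or miR160c differed between chr2 and Col with DMS by edgeR (0 of 123 and 0 of 113, and 0% of 2594 over the series). The smallest adjusted p was 0.254, shared by A47, A133 and A135, whose log2 ratios of chr2 to Col were -6.48, -7.06 and 6.53. A226, in the 3′ part of the lower stem, was next, with 0.0282% and 0.0341% in chr2 against 1.82% and 4.84% in Col (log2 ratio -6.79, adjusted p = 0.267). A187 had a log2 ratio of -4.55 (adjusted p = 0.332). C217, in the star strand, ran the other way, with 6.81% and 2.21% in chr2 against 0.0516% and 0.0872% in Col (log2 ratio 5.97, adjusted p = 0.366). At an unadjusted p under 0.05 there were 9 positions in miR160a (7.32%) and 4 in miR160c (3.54%), against 4.24% of the series. DESeq2 called 20 in miR160a (8 higher and 12 lower in chr2) and 13 in miR160c (8 higher and 5 lower), against 11.1% of the series. At G and T, which DMS is not meant to mark here, DESeq2 also called 12 of 146 positions in miR160a and 9 of 114 in miR160c. Over the series it called 8.30% of 2833. There edgeR called 0, with 2 and 0 at an unadjusted p under 0.05, against 3.95% of the series.

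In miR160c the 4 positions with an unadjusted p under 0.05 (edgeR) were all higher in chr2, against 59 of 110 over the series. With primer ends left out, 2 remained. A223, in a primer end, was among the 4. It read 0.0326% and 0.0271% in chr2 against 0.0165% and 0.0195% in Col, with mocks of 0.0249% in chr2 and 0.0184% in Col. A32 had the smallest p, with 2.47% and 0.607% in chr2 against 0.0261% and 0.0263% in Col (log2 ratio 5.82, adjusted p = 0.422, edgeR), and its log2 ratio stayed between 4.49 and 6.51 when any 1 library was left out. A80 followed, with 0.451% and 2.71% in chr2 against 0.0611% and 0.0303% in Col, with a log2 ratio of 3.26 to 5.85 when any 1 library was left out. The positions with the smallest p in the other direction, A48, A59 and A71, had unadjusted p-values of 0.0802, 0.101 and 0.0880 in the same edgeR fit. A59 read 0.0204% and 0.0196% in chr2 and 2.21% and 0.0130% in Col, and A71 read 0.0166% and 0.0201% in chr2 and 2.97% and 0.0166% in Col. At both, Col replicate 1 alone was high, and without it the log2 ratio of chr2 to Col turned to 0.54 for A59 and 0.07 for A71.

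Averaged over the precursor, the rate of miR160a was 2.11% ± 0.377 in chr2 and 2.13% ± 0.307 in Col (SD, n = 2 each), and that of miR160c was 0.513% ± 0.181 in chr2 and 0.507% ± 0.388 in Col. The scaled ratio of chr2 to Col was 0.959 for miR160a (95% interval 0.597 to 1.54) and 1.13 for miR160c (0.222 to 5.72), with an adjusted p of 0.929 for both (limma over the 19 amplicons). None of the 19 passed, also at an unadjusted p under 0.05. The interval of miR160c is wide, so a like mean there is not shown. Its log2 ratio of 0.17 became -0.19 without chr2 replicate 1 and -0.67 without Col replicate 2, and that of miR160a, -0.06, became 0.12 without chr2 replicate 2 and 0.11 without Col replicate 2.

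By region, chr2 and Col libraries did not overlap in the star strand of miR160a, which was higher in chr2 (1.18% ± 0.426 against 0.698% ± 0.0815, SD, n = 2 each). C217 alone read 6.81% and 2.21% in chr2 and 0.0516% and 0.0872% in Col there, and the strand was not averaged without it. The terminal region of miR160a was lower in chr2 without overlap (2.00% ± 0.572 against 2.57% ± 0.154). Its 3′ flank was higher in chr2 without overlap (2.05% ± 0.334 against 1.45% ± 0.00962). In miR160c the duplex as a whole was higher in chr2 without overlap (0.176% ± 0.0035 against 0.0678% ± 0.0297). Taken apart, both of its strands overlapped. The chr2 libraries read 0.301% and 0.0525% in the miRNA strand, and 0.0463% and 0.305% in the star strand. The high value of each strand came from a single base described above, in a different replicate, so the small SD does not show repeated reactivity. Each region without overlap had an exact two-sided permutation p of 0.333, the smallest that 2 libraries against 2 can give. That is also how often such a separation arises with no difference between the groups. The other regions overlapped. No region can therefore be said to differ between the genotypes on these libraries.

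The precursors also differed in how far replicates repeated each other. In miR160a 26 of 103 positions were past 1% in both chr2 replicates, 30 in 1 and 47 in neither, and in Col the counts were 32, 25 and 46. In miR160c only 2 of 83 were past 1% in both chr2 replicates, 21 in 1 and 60 in neither, and in Col the counts were 1, 21 and 61. Replicate 1 of chr2 and replicate 1 of Col shared 9 positions past 1% in miR160c, more than the replicates of either genotype did, and these libraries each had 17 such positions, against 8 in chr2 replicate 2 and 6 in Col replicate 2. Over all 19 amplicons 27.5% of positions were past 1% in both chr2 replicates and 26.8% in both Col replicates. Of the positions past 1% in at least 1 replicate, both replicates shared 46.4% in chr2 and 56.1% in Col for miR160a, and 8.70% and 4.55% for miR160c. Over the 16 pri-miRNAs, these precursors included, the shares were 43.1% and 40.6%, and over the 3 mRNAs 87.7% and 88.7%. Low shares were not particular to miR160c. In chr2 it ranked 17th of 19, above miR319a and miR165a at 0%, and in Col it tied for lowest with miR393b. miR390a shared 9.09% in chr2 and 11.8% in Col. The amplicon closest to miR160c in mean rate, miR164b, shared 18.4% and 22.2%.

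**Figure D4:**
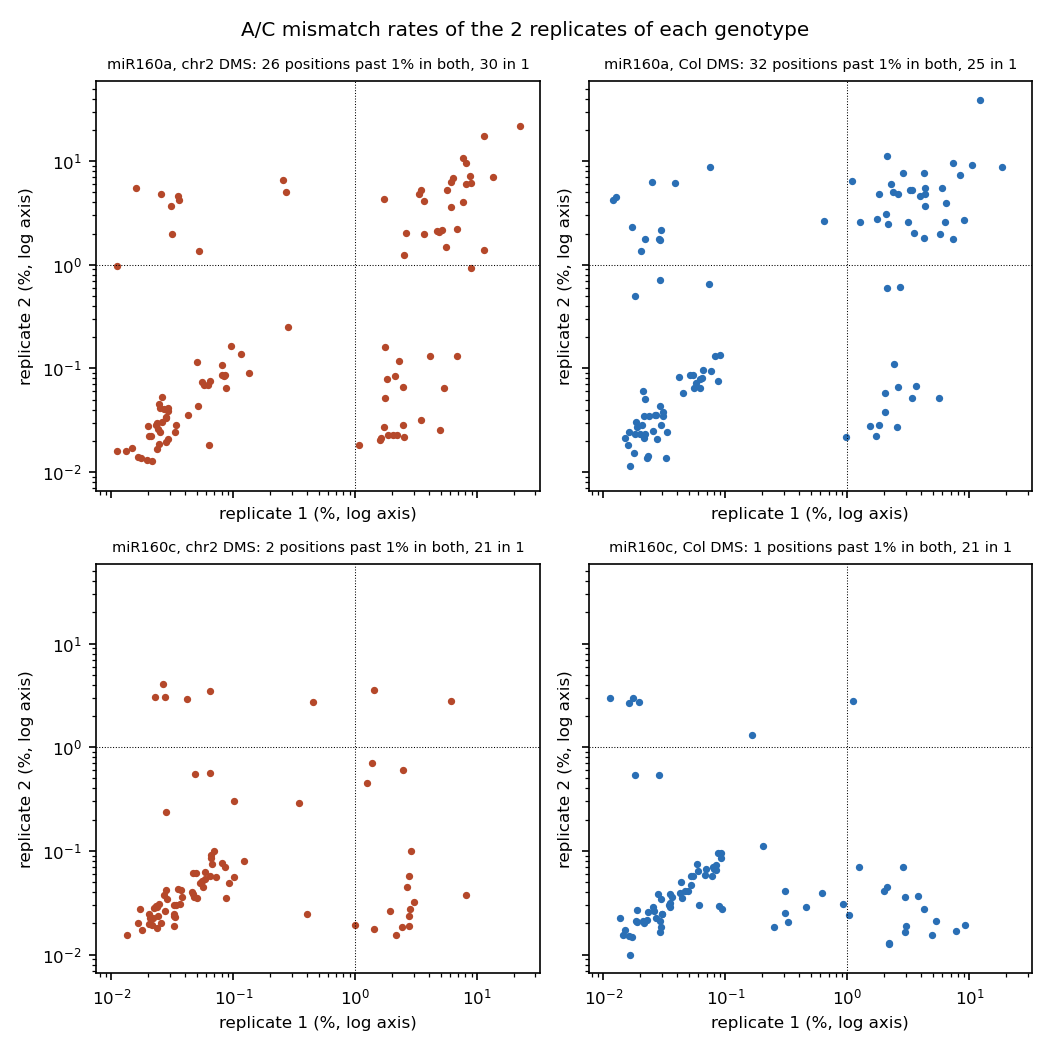
A/C mismatch rates (%, both axes log) of replicate 2 against replicate 1, with 1 point per position, for miR160a (top) and miR160c (bottom) in chr2 (left) and Col (right). Dotted lines mark 1%. The upper right corner holds 26 and 32 positions for miR160a but 2 and 1 for miR160c, where most reactive positions lie along an axis, high in 1 replicate and at mock level in the other.

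The sequences inside the primer ends are shown with an A or C in capitals where both replicates of chr2 or both of Col were past 1%, 42 bases in miR160a and 3 in miR160c (A64, C89 and A199).

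miR160a, positions 27 to 247: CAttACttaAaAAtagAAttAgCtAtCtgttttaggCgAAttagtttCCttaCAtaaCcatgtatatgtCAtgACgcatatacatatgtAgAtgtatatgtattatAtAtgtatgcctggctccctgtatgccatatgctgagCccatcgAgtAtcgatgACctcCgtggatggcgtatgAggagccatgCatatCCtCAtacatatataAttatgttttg

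miR160c, positions 27 to 204: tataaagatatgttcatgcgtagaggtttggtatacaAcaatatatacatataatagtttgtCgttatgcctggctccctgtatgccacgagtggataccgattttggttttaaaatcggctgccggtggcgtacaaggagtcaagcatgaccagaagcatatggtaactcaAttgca

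In miR160a most of the capitals lie in the 5′ flank, which holds 52 of the 103 A or C, and none lies in the miRNA strand. In miR160c they fall outside the duplex and terminal region altogether. A199 of miR160c read 1.42% and 3.53% in chr2 and 9.19% and 0.0195% in Col, and A64 read 0.0644% and 3.50% in chr2 and 1.11% and 2.77% in Col, so each was at or near mock level in 1 of the 4 libraries.

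As a description across positions, which are not independent replicates and share a library and its depth, the Spearman correlation of the replicates was 0.63 in chr2 and 0.60 in Col for miR160a (n = 103 positions), and 0.33 in chr2 and 0.04 in Col for miR160c (n = 83). Pairs of libraries of different genotype gave 0.47 to 0.65 in miR160a and 0.28 to 0.49 in miR160c, so replicates of 1 genotype lay within or below the range of libraries of different genotypes. The mocks of chr2 and Col correlated at 0.82 in miR160a and 0.88 in miR160c.

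**Figure D5:**
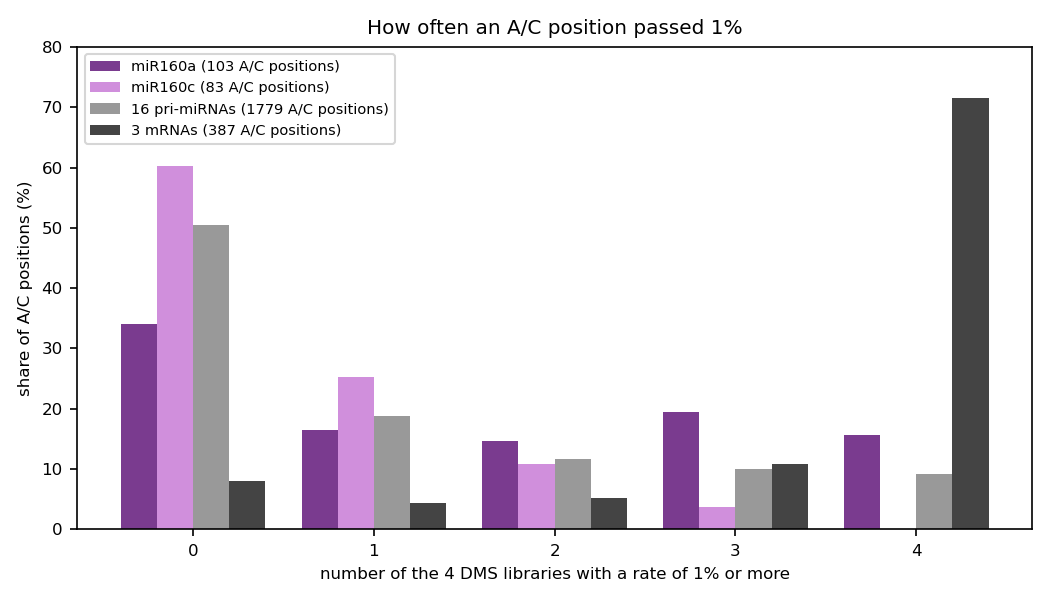
Share of A/C positions (%) by the number of the 4 DMS libraries in which the rate was 1% or more, for miR160a, miR160c, the 16 pri-miRNAs (these 2 included) and the 3 mRNAs. miR160c has no position at 4 libraries and 50 of 83 at 0, while 71.6% of mRNA positions are past 1% in all 4.

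Counted over the 4 DMS libraries, 35 positions of miR160a were past 1% in none, 17 in 1, 15 in 2, 20 in 3 and 16 in 4. For miR160c the counts were 50, 21, 9, 3 and 0. At least 1 library was past 1% at 66.0% of the positions of miR160a and 39.8% of those of miR160c, against 57.1% in the series, and all 4 were at 15.5% of those of miR160a, against 20.4% in the series, 9.22% over the 16 pri-miRNAs and 71.6% over the 3 mRNAs. By the share past 1% in at least 1 library miR160c was not the lowest: miR165a (12 of 109 positions), miR319a (14.8%), miR390a (25.3%), miR393b (37.1%) and miR156b (38.7%) lay below it. Rates hardly took values between mock level and 1%. Of the 412 values of miR160a with DMS, 228 were under 0.2%, 13 between 0.2% and 1%, and 171 at 1% or more, and of the 332 of miR160c the counts were 262, 22 and 48. No mock value of either precursor reached 1%, the highest being 0.313% in miR160a and 0.267% in miR160c.

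A rate past 1% was usually made of 1 substituted base. In miR160a a single base made up at least 90% of the mismatches in 112 of 171 such values (65.5%), and in miR160c in 42 of 48 (87.5%). In mock values with at least 20 mismatches this held for 8 of 131 (6.11%) in miR160a and 1 of 164 (0.610%) in miR160c. T was the leading base at 72 of 104 values for A and 36 of 67 for C in miR160a, and at 30 of 33 and 9 of 15 in miR160c. The leading base often changed between libraries: among positions past 1% in 2 or more libraries it was the same in all of them at 23 of 51 in miR160a and 6 of 12 in miR160c. At C74 of miR160a it was T in both chr2 libraries (51.7% and 63.1% of mismatches) and A in both Col libraries (40.8% and 56.7%), so no base dominated. At C79 it was A in both chr2 libraries (61.1% and 97.3%) and T in both Col libraries (64.4% and 99.4%). At A80 it was C in all 4, with at least 98.7%.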

How the data were processed

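Per the labels' protocols, gene-specific primers were used on 5 µg of nuclear RNA (TGIRT-III, then KOD PCR), and the products were mixed equally and fragmented to 50 to 200 bp, so depth does not measure RNA abundance. The deposited files hold counts of A, C, G and T calls per position, per the file headers. Tools listed in the submitters' processing notes are cutadapt, BWA, Picard and SAMtools 1.5. Positions are those of the amplicons, because the build is not given in the sources used here, and names come from a RefSeq gene table (TAIR10.1), in which both precursors matched.

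From the authors' counts, mismatch rates were computed per position. Tests took positions with 100 or more calls in every library fitted, a mock rate of no more than 5%, and 10 or more mismatches in all. Tests of single positions kept the primer ends. edgeR 4.0.16 (quasi-likelihood, R 4.3.3) was fitted to mismatch counts of all amplicons with log coverage as offset, plus a size factor (0.962 to 1.01, the median ratio of A/C rates) for chr2 against Col. DMS against mock used all 6 libraries, since each mock has 1 library. Mean rates were tested with limma 3.58.1. Adjusted p-values are Benjamini-Hochberg at 0.05. DESeq2 1.42.0 was an alternative, and adjusted p-values it gave as missing stayed uncalled. Fits were run on simulated data with known changes. The spread between simulated replicates was set in advance and not taken from these libraries, so that check does not speak for the calls here. Folds came from ViennaRNA 2.7.2 at 37 °C. The mature miRNA was to be placed by exact match to its known sequence, but no file here holds it, so the run shared by the precursors was used instead. The lower stem was to follow the fold, which left no A or C there in miR160a, so 15 nt per side were used.

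The named positions are those past an edgeR test, the 8 highest by the lower replicate, the 3 with the smallest p between genotypes in each direction, and the 3 with the largest replicate difference. Bases of the duplex and terminal region named beside them, and A207, C222 and others given only as values, were chosen after their values were seen. The precursors, thresholds and lists were chosen with earlier results of these data known. Over the whole series, same-numbered replicates of chr2 and Col did not deviate together (correlation 0.0247 over 2594 positions). That check does not speak for miR160c alone, where replicate 1 had the higher mean rate in both genotypes. The means were 0.641% and 0.385% in chr2 and 0.781% and 0.233% in Col.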

Additional observations from a re-analysis of the deposited data

Results flagged for a closer look

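G and T positions lie outside the main readout, and none of those inside the primer ends reached 1% in a mock, the highest mock values being 0.450% in miR160a and 0.380% in miR160c. With DMS, 12 of 118 G or T positions of miR160a and 10 of 95 of miR160c reached 1% in at least 1 library. In miR160a 2 of them did so in 2 libraries, and in miR160c 0 did. G176, beside the end loop of miR160a, read 2.47% and 3.17% in chr2 and 0.141% and 0.167% in Col, against 0.271% in the chr2 mock and 0.249% in the Col mock. G211, in its star strand, read 0.0668% and 4.19% in chr2 and 0.0258% and 2.45% in Col, against 0.152% in the chr2 mock and 0.0497% in the Col mock. By edgeR 0 G or T positions of either precursor passed the adjusted threshold in any comparison. At an unadjusted p under 0.05 there were 18 G or T positions of miR160a in chr2 and 9 in Col, of which 3 and 3 were higher with DMS and the rest lower. In miR160c there were 9 in chr2 and 3 in Col, and 0 of them were higher with DMS. Over the series 2.61% of G or T positions were higher at that p in chr2 and 2.57% in Col. In either direction the series had 7.32% in chr2 and 6.69% in Col. The same shares were 12.3% and 6.16% in miR160a, and 7.89% and 2.63% in miR160c.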

How the results depend on the processing

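Recomputed under other settings, 191 comparison values kept their direction and their side of the threshold or stayed close, 20 moved and 6 turned direction. Among values of single positions 252 did so, 62 were weaker, 13 stronger and 5 turned direction. DESeq2 in place of edgeR gave 20 positions of miR160a and 13 of miR160c between chr2 and Col, 42 and 18 above mock in chr2, and 50 and 18 in Col. A size factor from A/C positions gave 0 calls above mock in miR160a in chr2 and 0 in Col, and turned the log2 ratios to mock in chr2 to -0.13 at position 47 and -0.12 at position 187. Leaving out 1 DMS library, which leaves fewer samples, gave 0 to 0 calls above mock in both genotypes, in miR160a as over the whole series, with log2 ratios at position 79 of 6.97 to 7.74 in chr2 and 7.15 to 7.41 in Col, and at position 133 log2 ratios to mock in chr2 of -0.11 to 0.014. Without each library in turn, the chr2 to Col log2 ratio of the mean rate ran from -0.24 to 0.12 in miR160a and from -0.67 to 1.02 in miR160c, and at miR160c positions 59 and 71 from -6.80 to 0.54 and from -7.35 to 0.068. With the median rate that ratio was 0.032 in miR160a, and the miR160a to miR160c log2 ratio of the lower stem was -0.18. In miR160c a threshold of 0.5% left 4 positions shared by the chr2 replicates, 2% left 1 in chr2 and 0 in Col, and keeping primer ends moved the Spearman correlation of the Col replicates to 0.27. The causes were not tested. A replicate block left 0 calls between genotypes in both precursors (smallest adjusted p = 0.955), and with it the interval of the chr2 to Col ratio of the mean rate was 0.604 to 1.52 in miR160a and 0.667 to 1.91 in miR160c. The lower stem had no value for the other folds, since miR160a held no A or C there. Reads are not independent molecules, so the effective depth is unknown.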
